A study of Brassica rapa with 9 samples.

Results

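In whole seedlings of Brassica rapa, 60 of 41020 gene IDs met a rule that asks for values on one side of non-transgenic plants in plants carrying Arabidopsis thaliana phytochrome B and on the other side in plants carrying a G564E form of that receptor. In 3 of the 60 one of these steps was met only as 0 against 0, and without them the 2 directions hold 39 and 18 genes. The 60 were chosen by their read counts in all 9 libraries. Counts were divided by a size factor per library (the median ratio to each gene's geometric mean over the libraries), which gives a scaled read count called N here. A gene had to reach a mean N of 100 over the 9 libraries, which 18875 IDs did. In the first order, 41 genes had their lowest AtPHYB value at least 1.2 times the highest value of the non-transgenic plants (NT), and their lowest NT value at least 2 times the highest G564E value. In the second order, 19 genes met the same thresholds the other way round, with G564E highest and AtPHYB lowest. The deposited IDs carry no gene names and none of the 60 matched the gene table of the CAAS_Brap_v3.01 assembly, so the genes are described by ID and by read count, and no function is assigned to them.

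The 9 libraries came from 3 genotypes of the cultivar Chiifu, with 3 replicates each. AtPHYB seedlings carried the unmodified Arabidopsis receptor, G564E seedlings carried the receptor changed from glycine to glutamate at residue 564, and NT seedlings were non-transgenic. All were 2 weeks old, grown on MS medium with 0.5% sucrose in the condition abbreviated LD in the labels, and not heat-treated. The sources used here give neither the promoter that drives the transgene, nor the number of transgenic lines, nor whether a replicate was a plant, a pool or a line, so differences between lines and effects of the receptor cannot be told apart, and any spread between replicates may be technical.

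Phytochrome B is a light receptor that switches between a red-absorbing inactive form and a far-red-absorbing active form. The active form enters the nucleus, where it binds transcription factors of the PIF family and leads to their inactivation and turnover, and thereby shifts seedlings from elongation growth to leaf development and greening. It also returns to the inactive form in darkness and at warm temperature, so that it acts as a thermosensor as well. In Arabidopsis, the same exchange of glycine for glutamate is known from a mutant allele whose seedlings are unusually sensitive to light.

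Libraries held 15262884 to 20998541 counted reads. G564E replicate 1 correlated with G564E replicates 2 and 3 at Spearman coefficients of 0.843 and 0.841 over the genes with a mean N of 100 or more, against 0.975 between those other replicates. NT replicate 3 correlated with AtPHYB replicate 3 at 0.967, against 0.947 and 0.939 with NT replicates 1 and 2. Results below are therefore also given by library. N is not divided by gene length, so values are compared between libraries and not between genes.

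Each step of the rule was met by more genes than both steps together. Among the 18875 genes, 592 (3.14%) had AtPHYB above NT by the 1.2-fold gap and 719 (3.81%) had G564E below NT by the 2-fold gap, and the 41 genes that met both are 0.217% of the 18875. In the other direction, 555 (2.94%) had AtPHYB below NT and 406 (2.15%) had G564E above NT, and the 19 genes that met both are 0.101%. Both steps use the same NT libraries. The rule used every library and every contrast, so the differences between genotypes are given as a description, without a test.

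In the 41 genes with AtPHYB above NT above G564E, the median difference from NT was larger in G564E than in AtPHYB, as the rule favours with a gap of 2 times for G564E and 1.2 times for AtPHYB. Mean N in AtPHYB was 1.40 to 728 times that in NT, with a median of 1.76 times and quartiles of 1.57 and 2.08. The 728 is a ratio of summed counts in Bra019635, which had 2 reads over the NT libraries. The next highest ratio was 6.38, in Bra038024. In G564E, mean N was 2.56 to 86.2-fold lower than in NT, with a median of 6.93-fold and quartiles of 4.51 and 10.8, over the 40 genes with enough reads for a ratio. Set directly against AtPHYB, G564E was from 3.68-fold to at least 540-fold lower, with a median of 11.6-fold. That upper end is a bound, since the gene at it had no read in G564E and was set at a floor of 3 reads over the group. For comparison, the median log2 ratio over all 18875 genes was 0.02 for AtPHYB against NT and -0.04 for G564E against NT. AtPHYB was at least 2-fold above NT in 11 of the 41 genes and at least 3-fold above it in 3. G564E was at least 4-fold below NT in 32, at least 8-fold in 17 and at least 16-fold in 9.

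**Figure D1:**
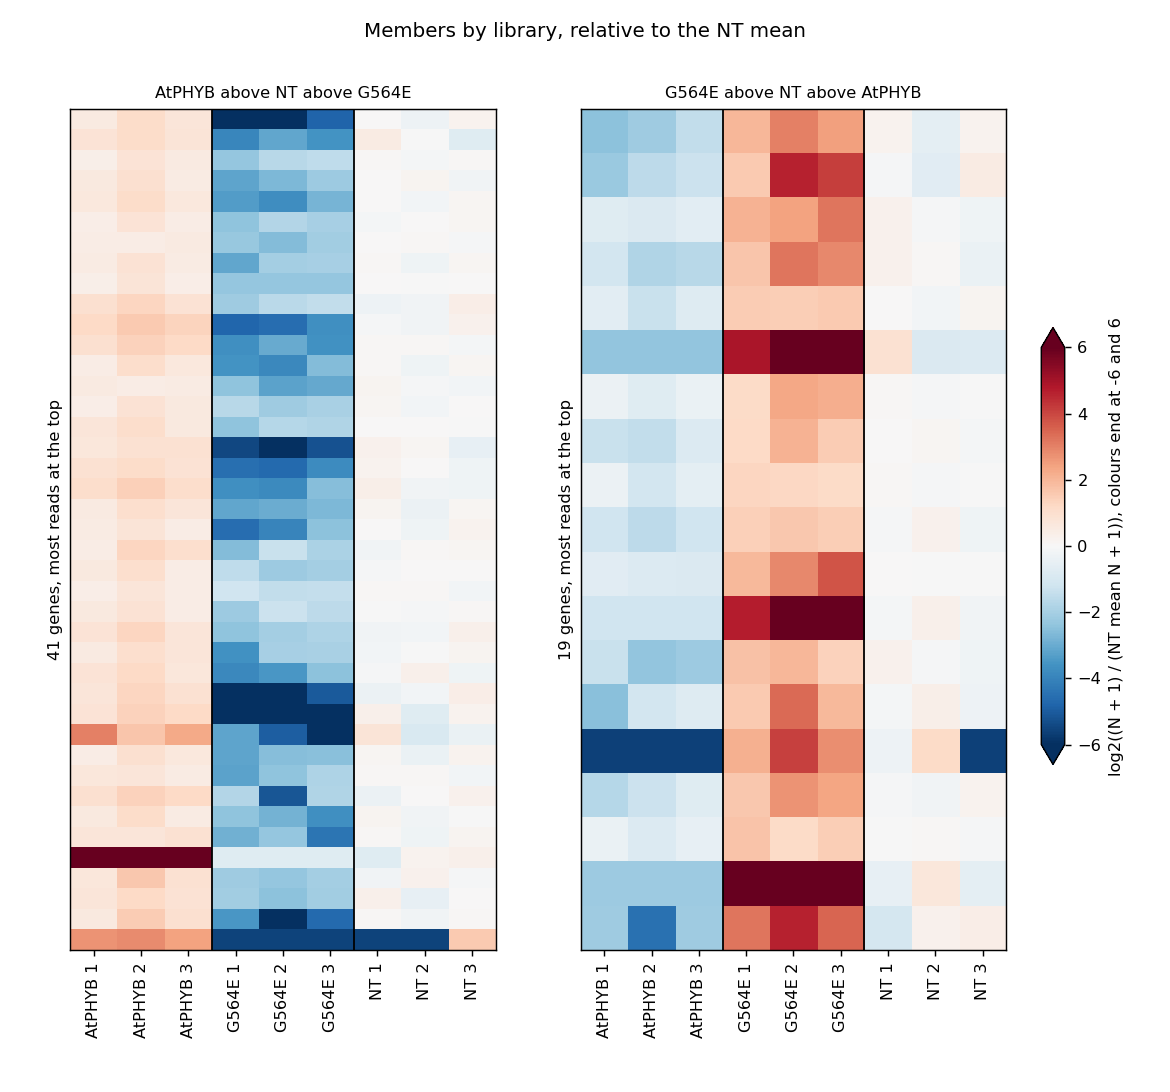
Scaled read counts of the 60 genes in each library on the log2 scale, relative to the NT mean of the gene; columns are libraries, rows are genes with the most reads at the top, red is above and blue below the NT mean. The 41 genes on the left are mostly pale red in AtPHYB and a deeper blue in G564E. The 19 on the right show the reverse, with G564E replicate 1 mostly paler than the other G564E libraries.

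Bra001937 and Bra025848 had the widest gaps in this order among genes with more than 3 reads in every genotype, taking for each gene the smaller of its 2 gaps between libraries (lowest AtPHYB over highest NT, and lowest NT over highest G564E). Other genes of the order were farther apart by the ratio of the AtPHYB to the G564E mean. Bra001937 had N of 8766, 11283 and 9796 in AtPHYB, 140.2, 158 and 298 in G564E, and 3586, 3328 and 4549.7 in NT (replicates 1, 2 and 3). In G564E, replicate 3 was the highest library, and the groups do not overlap, as the rule requires. Its means were 9948 ± 1266 in AtPHYB, 199 ± 86.7 in G564E and 3821 ± 644 in NT (SD, n = 3 each), so AtPHYB was 2.60 times NT and G564E was 19.2-fold below NT. The edgeR model gave log2 differences of 1.37 (standard error 0.28) for AtPHYB minus NT and -4.27 (standard error 0.32) for G564E minus NT.

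Bra025848 had N of 7046, 9684 and 8529 in AtPHYB, 287, 448 and 296 in G564E, and 3796, 3799.5 and 3406 in NT. Here AtPHYB replicate 2 and G564E replicate 2 were the highest of their groups. By the ratio of highest to lowest library NT was the tightest group, at 1.12 against 1.37 in AtPHYB and 1.56 in G564E. The means were 8419.8 ± 1322 in AtPHYB, 344 ± 90.6 in G564E and 3667 ± 226 in NT (SD, n = 3 each), which put AtPHYB at 2.30 times NT and G564E 10.7-fold below it. In the edgeR model the log2 differences were 1.19 (standard error 0.20) for AtPHYB minus NT and -3.42 (standard error 0.22) for G564E minus NT.

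The order also holds Bra018160, picked out after its values were seen because it took the most reads. It had N of 66145, 97588 and 74718 in AtPHYB, 193, 478 and 1628 in G564E, and 45866, 36574 and 52009 in NT. The AtPHYB mean was 1.77 times the NT mean, and the G564E mean was 58.5-fold lower than in NT. For Bra018160 the edgeR log2 differences were 0.81 (standard error 0.63) for AtPHYB minus NT and -5.87 (standard error 0.77) for G564E minus NT. Its G564E libraries were 8.45-fold apart, with replicate 1 lowest and replicate 3 highest. Bra018160 alone made up 0.338%, 0.434% and 0.366% of all counted reads in the AtPHYB libraries, 0.00130%, 0.00302% and 0.0104% in the G564E libraries, and 0.244%, 0.194% and 0.262% in the NT libraries.

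Together the 41 genes took 1.29 ± 0.108% of counted reads in AtPHYB, 0.129 ± 0.0217% in G564E and 0.806 ± 0.0548% in NT (SD, n = 3 each). Without Bra018160, the other genes of the order took 0.871% to 0.978% in AtPHYB, 0.107% to 0.141% in G564E and 0.547% to 0.616% in NT. The rule fixes this order of the genotypes for every gene summed here.

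**Figure D2:**
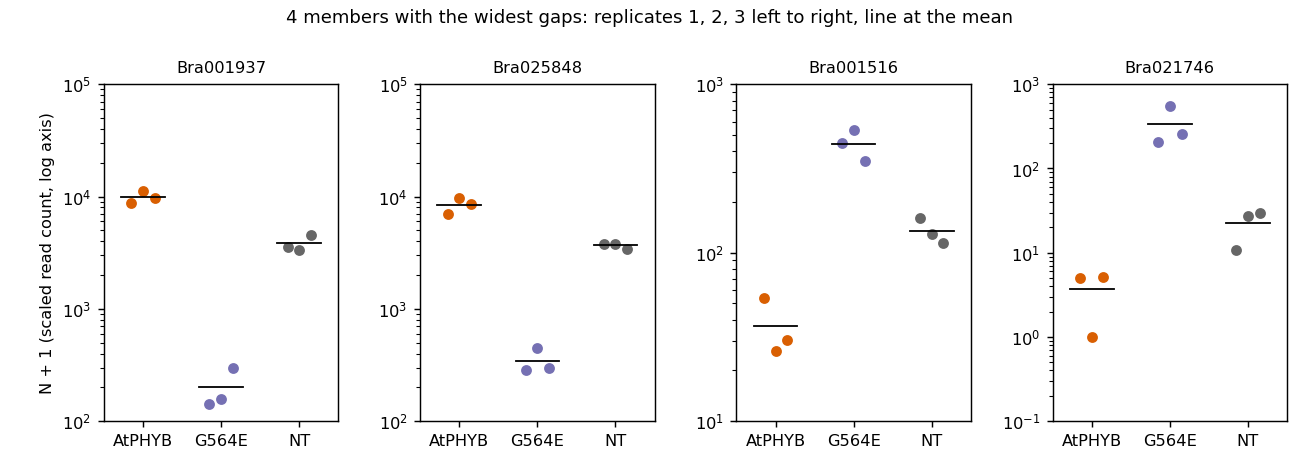
Scaled read count plus 1, on log axes that differ between panels. The genes shown had the widest gaps in each order among genes with more than 3 reads in every genotype. Points are replicates 1 to 3 from left to right in each genotype and lines are group means. Bra001937 and Bra025848 are highest in AtPHYB and lowest in G564E, and Bra001516 and Bra021746 are highest in G564E and lowest in AtPHYB.

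The 19 genes with G564E above NT above AtPHYB had read totals with a median of 167 over the AtPHYB libraries, 1792 over the G564E libraries and 404 over the NT libraries. The 41 genes of the other order had medians of 8947, 702 and 5427 in AtPHYB, G564E and NT. The AtPHYB and G564E totals follow from the direction of each order, since each was chosen to be low in one of these genotypes and high in the other. Mean N in AtPHYB was 1.202 to 44.8-fold lower than in NT, with a median of 2.46-fold and quartiles of 1.70 and 3.46, counting genes with no AtPHYB read at the bound that a floor of 3 reads over the group gives. In G564E, mean N was 2.35 to 496 times that in NT, with a median of 5.88 times and quartiles of 3.24 and 12.4. The upper end is Bra029172, which had 4 reads over the NT libraries. The next ratios, 320 in Bra010332 and 113 in Bra033969, rested on 12 and 11 NT reads. AtPHYB was at least 2-fold below NT in 12 of the 19 and at least 3-fold in 7, and G564E was at least 4-fold above NT in 12 and at least 8-fold in 7. The 19 genes took 0.00747 ± 0.00143% of counted reads in AtPHYB, 0.159 ± 0.0611% in G564E and 0.0194 ± 0.00183% in NT (SD, n = 3 each).

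Among genes with more than 3 reads in every genotype, Bra001516 and Bra021746 had the widest gaps in this order by the smaller of the 2 gaps. Bra033969, Bra029172 and Bra010332, described below, had wider gaps but no read in AtPHYB. Other genes were also farther apart by the ratio of the G564E to the AtPHYB mean. Bra001516 had N of 52.7, 25.2 and 29.2 in AtPHYB, 449, 532 and 351 in G564E, and 161, 129 and 112 in NT. AtPHYB replicate 1 was the highest of its group, and the groups do not overlap, as the rule requires. The means were 35.7 ± 14.9 in AtPHYB, 444 ± 90.7 in G564E and 134 ± 24.5 in NT (SD, n = 3 each), so AtPHYB was 3.75-fold below NT and G564E was 3.32 times NT. The edgeR log2 differences were -1.90 (standard error 0.30) for AtPHYB minus NT and 1.73 (standard error 0.28) for G564E minus NT.

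Bra021746 had N of 4.1, 0 and 4.2 in AtPHYB, 205, 552 and 253 in G564E, and 9.8, 26.1 and 28.6 in NT. The step between AtPHYB and NT rested on few reads in this gene, and G564E replicate 2 was more than 2-fold above the other G564E libraries. Mean N was 2.74 ± 2.37 in AtPHYB, 337 ± 188 in G564E and 21.5 ± 10.2 in NT (SD, n = 3 each). G564E was 15.7 times NT, an edgeR log2 difference of 3.94 (standard error 0.59).

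**Figure D3:**
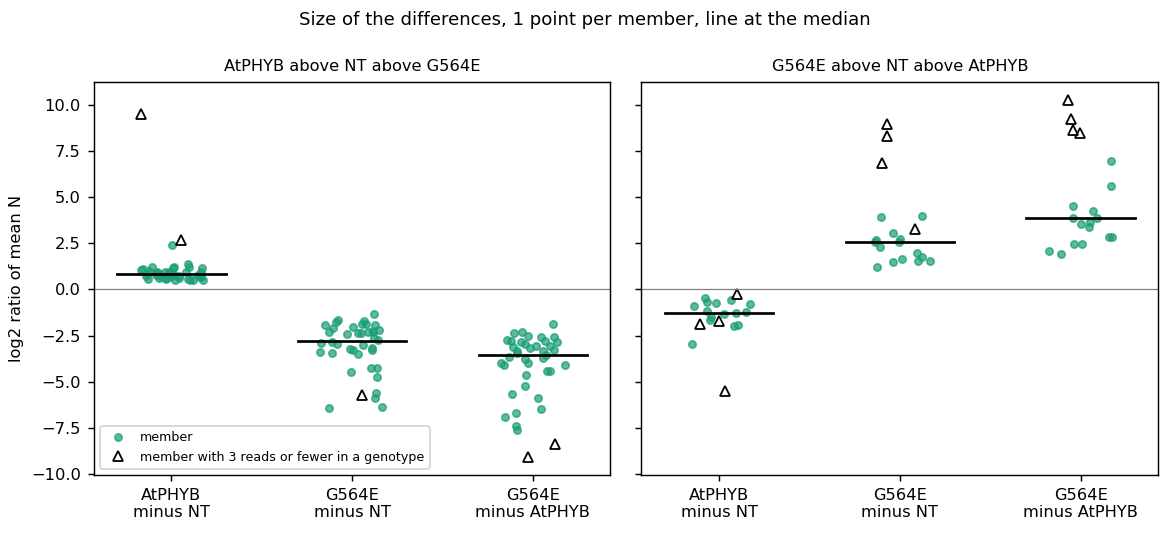
Log2 ratio of mean N between genotypes for each member, 1 point per gene with a line at the median, for both orders; triangles are genes with 3 reads or fewer in a genotype, placed at their bound or at their ratio of summed counts. The median of AtPHYB minus NT lies nearer 0 than that of G564E minus NT in both orders. These medians are 0.82 and -2.79 in the left panel and -1.30 and 2.56 in the right panel. As plotted, AtPHYB minus NT lies nearer 0 at all 40 genes with both ratios on the left and at 17 of 19 on the right.

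A total of 6 members had 3 reads or fewer in at least 1 genotype, and they are named here because their values make them special cases of the rule. Among them, 3 passed a gap only as 0 against 0. Bra019635 had N of 263, 585 and 612 in AtPHYB, 0 in every G564E library, and 0, 0.9 and 1.0 in NT. AtPHYB was 728 times NT by summed counts, with an exact 95% counting interval of 201 to 6020, but with 2 reads in NT and none in G564E no ratio can be given between those genotypes, so this gene was high in AtPHYB without a measurable step from NT to G564E. Bra038024 had N of 301, 327 and 247 in AtPHYB, 0 in every G564E library, and 0, 0 and 137 in NT. All of its NT reads came from replicate 3, so NT itself was split. Bra003396 had N of 0 in every AtPHYB library, 210.3, 816 and 334 in G564E, and 37.1, 103 and 0 in NT, and its NT replicate 3 stood with AtPHYB.

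The other 3 of these genes had no read in AtPHYB and only a few in NT. Bra010332 had N of 151, 889 and 2960.4 in G564E and 8.7, 1.8 and 2.0 in NT. Bra029172 had N of 59.6, 374 and 1489 in G564E and 1.1, 1.8 and 1.0 in NT. In both genes G564E replicate 1 was lowest and replicate 3 highest, and the G564E libraries of Bra029172 were 24.97-fold apart. Bra033969 had N of 358.5, 420.0 and 399 in G564E and 2.2, 6.3 and 2.0 in NT, and its G564E libraries lay close together. G564E was at least 1225-fold above AtPHYB for Bra010332, at least 592-fold for Bra029172 and at least 357-fold for Bra033969 on summed counts. The step between AtPHYB and NT rested on few reads, since Bra010332 had 12 reads over the NT libraries, Bra029172 had 4 and Bra033969 had 11, against none over the AtPHYB libraries. These intervals and bounds cover counting error only.

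How often a library was the highest or lowest of its genotype differed in some groups between the members and all genes. AtPHYB replicate 2 was the highest AtPHYB library at 36 of the 41 genes of the first order, or 87.8%, against 48.0% of all genes with a mean N of 100 or more, and it was the lowest at 10 of the 15 genes of the second order that had AtPHYB reads, or 66.7%, against 30.7% of all genes. Relative to the NT mean, the median of the 41 genes was 1.55, 2.12 and 1.65 times in AtPHYB replicates 1, 2 and 3. The median of the 19 genes was 0.398, 0.354 and 0.440 times in the same libraries. AtPHYB replicate 2 was thus farthest from NT in both orders, while its median over all 18875 genes was 1.04 times the NT mean.

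G564E replicate 1 had the lowest median of the G564E libraries in both orders. It was lowest at 20 of 39 genes of the first order with G564E reads (51.3%) and at 15 of 19 genes of the second (78.9%), against 53.4% of all genes. In the first order the median was 0.115, 0.157 and 0.183 times the NT mean in G564E replicates 1, 2 and 3. In the second order it was 3.28, 7.44 and 5.49 times the NT mean. Over all 18875 genes the medians were 0.906, 0.979 and 0.971 times the NT mean in G564E replicates 1, 2 and 3, so replicate 1 was lowest there too, and its share of lowest values among the 41 genes was close to that of all genes. Among the 19 genes, replicate 1 was the G564E library nearest to NT. The G564E libraries were at least 3-fold apart at 8 of the 41 genes, some with no read in a G564E library, and at 6 of the 19. This count was not made over all genes. The median ratio of SD to mean in G564E was 31.4% in the first order and 37.7% in the second, against 19.9% over all genes with a mean N of 100 or more.

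NT replicate 3 was the highest NT library at 20 of the 41 genes (48.8%, against 38.7% of all genes) and the lowest at 11 of the 19 (57.9%, against 37.2%). In both orders it was the NT library most often nearest to AtPHYB. Its median was 1.06 times the NT mean in the first order and 0.911 times in the second. Without NT replicate 3 the rule took 132 genes in the first order and 35 in the second.

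**Figure D4:**
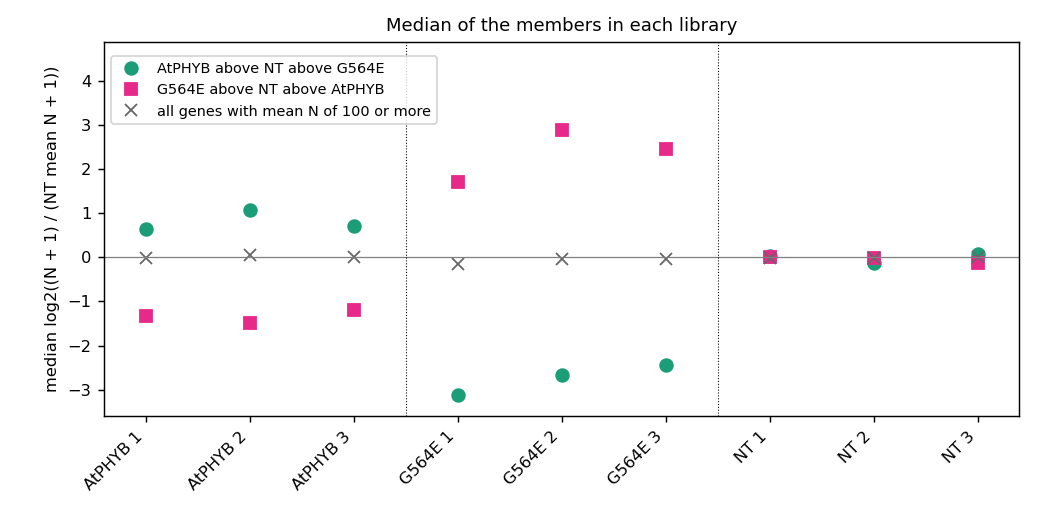
Median log2 ratio to the NT mean in each library for the 41 genes (circles), the 19 genes (squares) and all 18875 genes with a mean N of 100 or more (crosses). The circles lie above 0 in the AtPHYB libraries and below -2 in the G564E libraries, the squares lie the other way round, and the crosses stay near 0.

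Few members passed the edgeR test of AtPHYB against NT. With Benjamini-Hochberg adjustment over 27967 genes, 1 of the 41 genes was called higher in AtPHYB than in NT at an adjusted p under 0.05, where 0.104% of all genes were, and 1 of the 19 was called lower, where 0.0858% were. The called genes were Bra019635 (edgeR adjusted p = 0.00926) and Bra022699 (edgeR adjusted p = 0.0411). Bra022699 lost its call in the fit of AtPHYB and NT alone (edgeR adjusted p = 0.0511) and with the replicate number as a block (edgeR adjusted p = 0.137). Bra022699 had N of 68.9, 52.8 and 68.7 in AtPHYB, 432, 488 and 441 in G564E, and 149, 192 and 132 in NT, so AtPHYB was 2.48-fold below NT and G564E 2.88 times NT. Its NT libraries were the farthest apart of its groups, at 1.45-fold between the highest and the lowest. DESeq2 called 26 of the 60 genes in AtPHYB minus NT, where it called 3.19% of all genes. With single libraries left out, edgeR called 0 to 10 of the 60, and the share called over all genes changed as well, though not always in step with this count. It called 0 without NT replicate 1 or 2 (0.0209% and 0.0244% of all genes), 7 without NT replicate 3 (2.73%), 10 without G564E replicate 1 (1.21%) and 1 without any of the others (0.0314% to 0.0983%). For the 58 members that edgeR did not call, the separation of AtPHYB from NT is the one that the rule asks for. It is that of 3 libraries from 3, except in Bra003396, whose NT replicate 3 tied with AtPHYB at 0.

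In G564E minus NT, 39 of the 41 genes were called lower, where 13.2% of all genes were, and 18 of the 19 were called higher, where 13.8% were. The 3 genes not called were Bra019635, Bra038024 and Bra003396, the genes with a gap of 0 against 0. In G564E minus AtPHYB all 41 were called lower, where 16.6% of all genes were, and all 19 were called higher, where 18.4% were. Because the rule used the same libraries, these counts describe the genes and add nothing to their choice.

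The genes nearest the thresholds on either side had close values for the gaps between libraries and less close ones for mean N. In the first order, the ratio of lowest AtPHYB to highest NT was 1.202 and 1.204 in the genes just inside the threshold and 1.199 and 1.193 in those just outside, and the ratio of lowest NT to highest G564E was 2.01 and 2.17 just inside and 1.99 and 1.99 just outside. In the second order, the ratio of lowest NT to highest AtPHYB was 1.2002 and 1.23 just inside and 1.17 and 1.16 just outside, and the ratio of lowest G564E to highest NT was 2.03 and 2.101 just inside and 1.995 and 1.94 just outside. By mean N, the nearest genes had 112 and 118 inside and 92.1 and 76.3 outside in the first order, and 120.3 and 132 inside and 97.5 and 89.4 outside in the second.

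The split between the orders depended on the scaling. With TMM-scaled library sizes the rule took 40 and 19 genes, of which 39 and 18 were among the 41 and 19. With library size alone it took 29 and 32 genes, so that the second order became the longer one, and 28 of the 41 and all 19 were kept.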

How the data were processed

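RNA-seq reads of 9 whole-seedling libraries had been counted per gene by the authors, and the deposited files hold raw counts at 41020 gene IDs, 1 library per file. Libraries were made with a stranded mRNA kit, per the labels' protocols. FastQC 0.11.8, Trimmomatic 0.39, TopHat2, HTSeq and edgeR are named in the submitters' processing notes; settings, build, annotation and counting strand option are not stated in those notes or the labels. Reads shared between duplicated Brassica genes, or between antisense genes, could not be examined, so each ID is uncertain in that respect. Only 1 ID matched the gene table and no member did, so no gene list, marker list or promoter could be used, and no sequence is shown.

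Groups were taken from the sample titles. The members and lists were chosen with earlier results of these data known. Size factors were computed over the 27988 genes above 0 in all libraries. Raw counts were also fitted in R 4.3.3 with edgeR 4.0.16 (filterByExpr, TMM, quasi-likelihood test, a mean per genotype, all 9 libraries, Benjamini-Hochberg over 27967 genes), and the model was tested on simulated data. Standard errors are the log2 difference divided by the square root of F. DESeq2 1.42.0 was an alternative. Where a genotype had 3 reads or fewer, ratios were taken from summed counts, with a floor of 3 reads over the group at 0. The figures of log2 ratios per library add 1 to N. IDs named by rule were the 2 with the widest gaps in each order, passing over genes with 3 reads or fewer in a genotype; that exception, and every other ID, was chosen after the values were seen.

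The labels number replicates 1 to 3 in each genotype. Deviations from group means correlated at 0.40, 0.32 and 0.13 between G564E and AtPHYB libraries of the same number. Same-number correlations were -0.10, 0.08 and 0.08 between AtPHYB and NT, and -0.16, -0.17 and 0.03 between G564E and NT. Among different numbers, G564E replicate 3 correlated at 0.17 with AtPHYB replicate 2, and G564E replicate 2 at 0.12 with AtPHYB replicate 3. The remaining G564E and AtPHYB pairs were negative. The numbers may therefore pair some of these libraries, although the labels do not say what the numbers stand for. The reported fit has no block for them, and a replicate block was fitted as an alternative. Libraries held 15262884 to 20998541 counts.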

Additional observations from a re-analysis of the deposited data

How the results depend on the processing

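The choice of members moved with the thresholds. With an AtPHYB gap of 1.5 times, 8 genes were left in the order AtPHYB above NT above G564E and 12 in the reverse order, and with non-overlap of AtPHYB and NT alone there were 153 and 35. A G564E gap of 1.5 times gave 66 and 30, and a gap of 3 times left 7 in the reverse order. Library size alone gave 32 there. TMM scaling, a mean N of at least 50 or 200, and leaving out gaps of 0 against 0 (39 and 18 genes, an alternative chosen after seeing the data) stayed within 1.5 times of the 41 and 19. With 1 library left out, the orders held 45 to 132 and 17 to 50 genes. A rule over fewer libraries is easier to meet, and the highest counts came without NT replicate 3 in the first order and without G564E replicate 1 in the second. Without AtPHYB replicate 1 the counts were 80 and 37, without NT replicate 1 they were 60 and 28, without NT replicate 2 they were 53 and 40, without AtPHYB replicate 3 they were 48 and 33, without G564E replicate 1 they were 65 and 50, and without NT replicate 3 they were 132 and 35.

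For AtPHYB minus NT, the 2 members called by edgeR became 26 in DESeq2 (3.19% of all genes called), 7 in a fit of these genotypes alone (0.746%), 1, Bra019635, with the replicate block (0.0608%) and 1 at an adjusted p under 0.01 (0.0215%), against 0.19% in the reported fit, and 0 to 10 with single libraries left out, 0 without NT replicate 1 or 2, 7 without NT replicate 3, 10 without G564E replicate 1 and 1 without any other library. The cause was not tested. The fit of these genotypes alone did not test 4 members. With single libraries left out, members called ranged from 56 to 58 in G564E minus NT, where 16.8% to 37.6% of all genes were called. In G564E minus AtPHYB they ranged from 59 to 60, where 21.1% to 45.3% of all genes were called. With the replicate block 57 and 60 members were called, so the block changed no other count of members. The shares over all genes were 23.8% and 32.3% with the block, against 27% and 35% in the reported fit. In a block fit of the AtPHYB and G564E libraries alone, added after seeing the data, 60 members and 33.8% of all genes were called. Over 582 recomputed values of the 12 IDs named in the text no direction turned, while 18 lost a call and 16 gained one. The rule fixed the order of their groups, with ties at 0 in Bra019635, Bra038024 and Bra003396, so direction is no sign of stability. Members of the second order had a median of 167 reads over the AtPHYB libraries. Whether read depth limits their AtPHYB step was not tested.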
